A study of Mus musculus with 6 samples.

Results

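Replication-dependent histone genes are the 63 genes of the deposited count table whose GRCm38 symbol begins with Hist1h, Hist2h, Hist3h or Hist4h, out of 16312 genes in all. They fall into the linker class H1 with 5 genes and the core classes H2a with 16, H2b with 17, H3 with 12 and H4 with 13. By position, 51 belong to the Hist1 cluster on chromosome 13, 9 to the Hist2 cluster on chromosome 3, and 3 to other loci, namely Hist3h2a and Hist3h2ba on chromosome 11 and Hist4h4 on chromosome 6. RNA was sequenced from haematopoietic stem cells (HSCs) that had been sorted by flow cytometry from bone marrow of male C57BL/6N mice. The old group held 3 samples from mice aged 22 months and the young group 3 samples from mice aged 8 to 12 weeks. Both groups were labelled as B6 controls within a study of parabiosis, and no other genotype or treatment was given. Per the design text, the samples of one age are biological replicates.

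Each DNA replication cycle needs new histones, and these genes supply them: H2A, H2B, H3 and H4 form the core particle around which DNA is wound, and H1 binds the linker DNA between particles. Their transcripts peak in S phase, and most end not in a poly(A) tail but in a short stem-loop, which the stem-loop binding protein SLBP recognises for cleavage, translation and decay. HSCs are mostly quiescent, with a small share of them in cycle at any time. In bulk RNA, fewer cells of a type and less RNA per cell cannot be told apart.

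The libraries held 12494557 to 30931680 counts, the lowest in old replicate 2. Values are given as CPM, counts scaled to the library size after TMM adjustment. All 10 listed HSC markers were in the table, among them Kit at 829, 879 and 918 CPM in old and 826, 888 and 930 CPM in young HSCs. Of the 10, Procr and Slamf1 were higher and Flt3 was lower in old HSCs, and Cd48, which the HSC surface phenotype lacks, stayed between 0 and 3.09 CPM. Markers of other cells moved with age too. Of 13 monocyte and macrophage markers in the table, 7 of the 11 tested were lower in old HSCs, their sum lay between 8.86 and 9.66 CPM in old and between 42.4 and 52.6 CPM in young libraries, and Adgre1, Fcna, Cd5l and C1qb were at 0 in all old libraries. Without old replicate 1 or 3 the monocyte and macrophage count was 4 or 3. Of 8 neutrophil markers, 4 of the 5 tested were lower in old HSCs, with sums of 5.57 to 8.43 CPM in old and 16.6 to 237 CPM in young libraries, the highest in young replicate 1. That neutrophil count was 0 with limma-voom and without old replicate 1, and 1 without old replicate 2, old replicate 3 or young replicate 1. Of 10 erythroid markers tested, Car1, Ermap and Klf1 were lower in old HSCs with edgeR and none with limma-voom. Car1 lay between 0.687 and 0.844 CPM in old and between 18.2 and 147 CPM in young libraries, and Ermap and Klf1 were 6.32-fold and 7.18-fold lower. The erythroid sum, 749 to 912 CPM in old and 817 to 1203 CPM in young libraries, was mostly Car2, with 698 to 870.3 CPM in old and 734 to 910.2 CPM in young libraries. Which surface markers the sort used is not given in the sources used here, and the part of these other cells in the histone results was not tested. Old libraries carry consecutive library numbers in the labels and young ones do not, so a step that followed those numbers cannot be told apart from age. Young replicate 2 has one library number in its title and another in its description, and results without it are given where it decides a call.

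The stem-loop is the sequence most members share, so its forms are shown first. An arm GGNNCT, followed directly by the loop TTTN and the arm AGNNCC (N is any base), was searched on the sense strand. It was present in the annotated transcript of 41 of the 63 genes and in 0.0919% of 58729 other protein-coding transcripts of GENCODE vM21. For 11 genes the annotated model ends at the stop codon, so the stem-loop could not be found there. The 6 forms are given as DNA, 5′ to 3′, with the 6 paired bases of each arm in capitals and the loop of 4 bases in lower case.
24 genes of classes H1, H2a, H2b and H3: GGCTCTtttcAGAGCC
7 H4 genes, Hist1h4d and Hist4h4 among them: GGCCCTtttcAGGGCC
5 H2b and H3 genes, Hist1h2bk and Hist1h3c among them: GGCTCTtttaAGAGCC
Hist1h4i and Hist2h4: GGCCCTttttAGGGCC
Hist1h4b and Hist1h4j: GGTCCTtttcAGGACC
Hist2h2ac: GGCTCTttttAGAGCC
The search itself fixed the pairs outside the N positions of the arms. At those N positions, every change in one arm was matched in the other in each of the 6 forms. All 11 H4 models that held the letters had one of the 3 forms listed for H4 genes, and none had the form of the 24 genes.

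Reads of 50 bases could often not be placed on one copy, and 4 H2b genes show why. Hist1h2bf, Hist1h2bj, Hist1h2bl and Hist1h2bn encode one and the same protein, and their 381 coding bases differ from each other at 6 to 9 positions per pair. The first 90 coding bases of each are given 5′ to 3′ from the GENCODE vM21 transcripts, with capitals at the 5 positions shown here of the 12 at which the 4 genes vary.
Hist1h2bf: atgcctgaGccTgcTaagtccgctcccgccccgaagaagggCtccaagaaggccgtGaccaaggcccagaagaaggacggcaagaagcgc
Hist1h2bj: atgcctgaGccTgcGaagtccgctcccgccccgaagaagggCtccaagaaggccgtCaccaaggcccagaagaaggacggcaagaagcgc
Hist1h2bl: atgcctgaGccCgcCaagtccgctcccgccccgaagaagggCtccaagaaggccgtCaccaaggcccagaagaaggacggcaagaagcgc
Hist1h2bn: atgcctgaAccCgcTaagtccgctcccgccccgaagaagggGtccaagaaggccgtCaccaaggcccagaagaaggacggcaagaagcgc
Of all stretches of 50 bases in the member transcripts, a median of 45.01% per gene occurred in no other gene. This share was 97.8% in H1, 27.0% in H2a, 50.3% in H2b, 38.0% in H3 and 60.5% in H4 (class medians). It lay under 50% in 33 of the 63 genes and at 0 in 4 of them, Hist2h2aa1, Hist2h2bb, Hist2h3b and Hist2h3c1. The H4 genes all encode one protein of 103 residues from 13 genes, whereas the 5 H1 genes encode 5 distinct proteins that share 69.2% to 87.3% of residues per pair. The 16 H2a genes encode 8 distinct proteins, the 17 H2b genes 11 and the 12 H3 genes 3, by translation of the annotated models. Counts of single copies therefore rest in part on how the authors' tool divided shared reads, Hist1h1e included, where 68.0% of stretches were unique. Sums over a class rest on it too, since a median of 55.3% of the stretches of an H2a gene also occurred, on either strand, in a gene outside the class. That median was 0 in H1, 11.9% in H2b, 12.1% in H3 and 10.3% in H4, and Hist1h1e had 23.8%. Whether counting used strand is not given in the sources used here, and all 16 H2a genes lie opposite a predicted gene on the other strand.

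In old HSCs 15 histone genes were lower and none was higher (edgeR, adjusted p under 0.05), which is 23.8% of the 63, whereas 1.54% of the 14288 genes tested were lower and 2.45% were higher. At an unadjusted p under 0.05 the counts were 34 lower and 0 higher, and DESeq2 and limma-voom likewise called 0 higher. The share of all tested genes at that unadjusted p was not counted, here or for the clusters and lists below. The median log2 fold change of old over young was −0.91 over the 63 genes and −0.017 over all genes tested, and 50 of the 63 values were below 0. All old libraries lay below all young libraries for 37 of the 63, a pattern seen in 10.8% of tested genes, and above them (11.6% of tested genes) for Hist1h2ao and Hist2h2be. The lower genes were 2 of 5 in H1, 2 of 16 in H2a, 5 of 17 in H2b, 2 of 12 in H3 and 4 of 13 in H4, so no class held all of the change. Class medians of the log2 fold change ran from −1.08 in H4 over −0.93 in H2a, −0.82 in H3 and −0.78 in H2b to −0.76 in H1. The number of lower genes fell to 7 when old replicate 1 was left out, to 8 without old replicate 3 and to 9 without young replicate 2, and DESeq2 gave 27. Over all genes tested, lower calls were 220 in the main fit and 98, 79, 163 and 487 in those 4 fits, in the same order. Hist1h1b, Hist1h2bf, Hist1h2bl, Hist1h2bm, Hist1h3b, Hist1h4f and Hist2h2ac were called in each of 11 alternative fits.

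**Figure D1:**
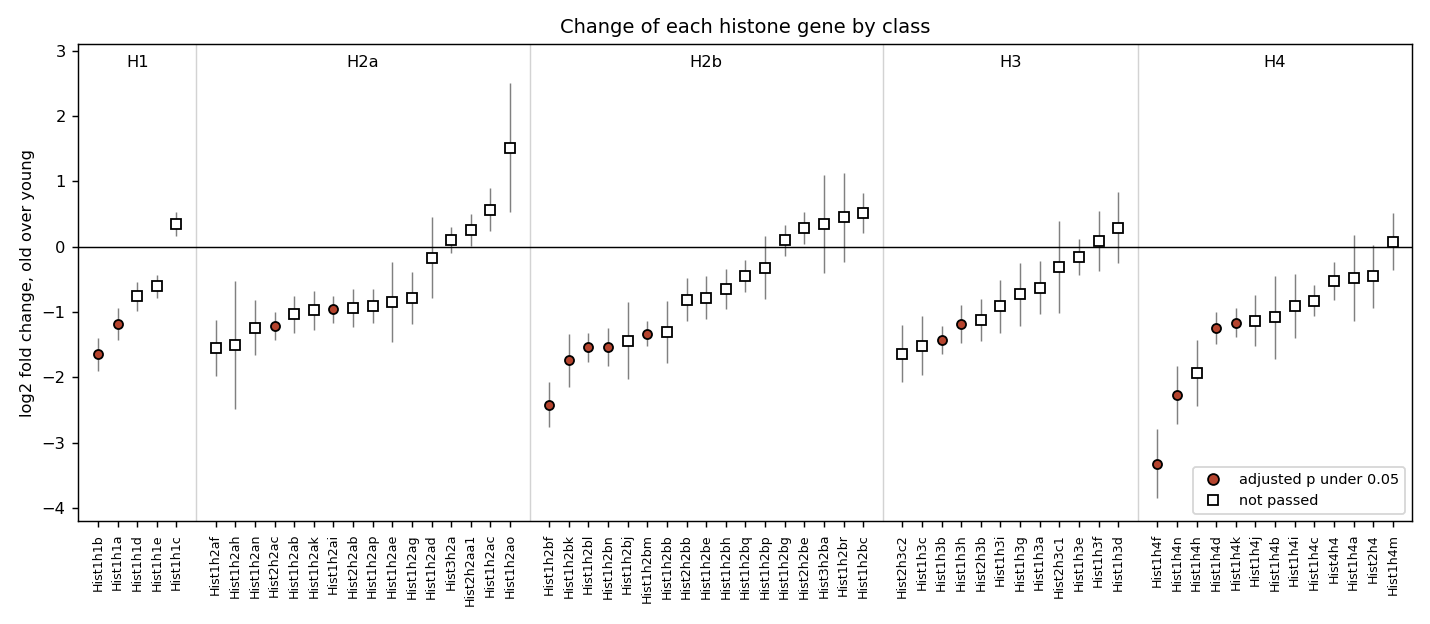
Log2 fold change of each of the 63 histone genes, old over young HSCs, with its standard error (edgeR), grouped by class and ordered within it. Filled circles mark the 15 genes past an adjusted p of 0.05, all below 0, and open squares the 48 others, of which 13 lie above 0.

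Summed over all 63 genes, histone transcripts took 830.2, 1223 and 1006 CPM in old HSCs, against 2045, 2051 and 1645 CPM in young HSCs. The means were 1019.7 ± 197 CPM in old and 1914 ± 232 CPM in young HSCs (SD, n = 3 each), a 1.88-fold lower level in old HSCs. The highest old library, old replicate 2, is also the shallowest, and it stayed below the lowest young library. The sums give no p-value, since the genes were chosen with results of these libraries known.

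H4 differed by the most among the 5 class sums. Its sum was 214, 367 and 308 CPM in old HSCs, against 764, 798 and 467 CPM in young HSCs, a 2.28-fold lower level. H2b had 189.9, 254 and 228 CPM in old HSCs, against 473, 427 and 393 CPM in young HSCs, a 1.93-fold lower level. H3 summed to 70.1, 111 and 77.7 CPM in old HSCs, against 155, 169.9 and 155 CPM in young HSCs, 1.86-fold lower. In each of these the old libraries lay wholly below the young ones. H1 had 198, 288 and 210.3 CPM in old HSCs, against 383, 366 and 353 CPM in young HSCs, 1.58-fold lower. H2a had 158, 204 and 182 CPM in old HSCs, against 269, 290.4 and 278 CPM in young HSCs, 1.54-fold lower. The groups did not overlap for H1 and H2a either, and in every class old replicate 2 was the highest old library. As a share of all histone counts the classes overlapped between the groups. H4 took 25.8% to 30.7% in old and 28.4% to 38.9% in young libraries, and H1 took 20.9% to 23.8% in old and 17.8% to 21.5% in young libraries.

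**Figure D2:**
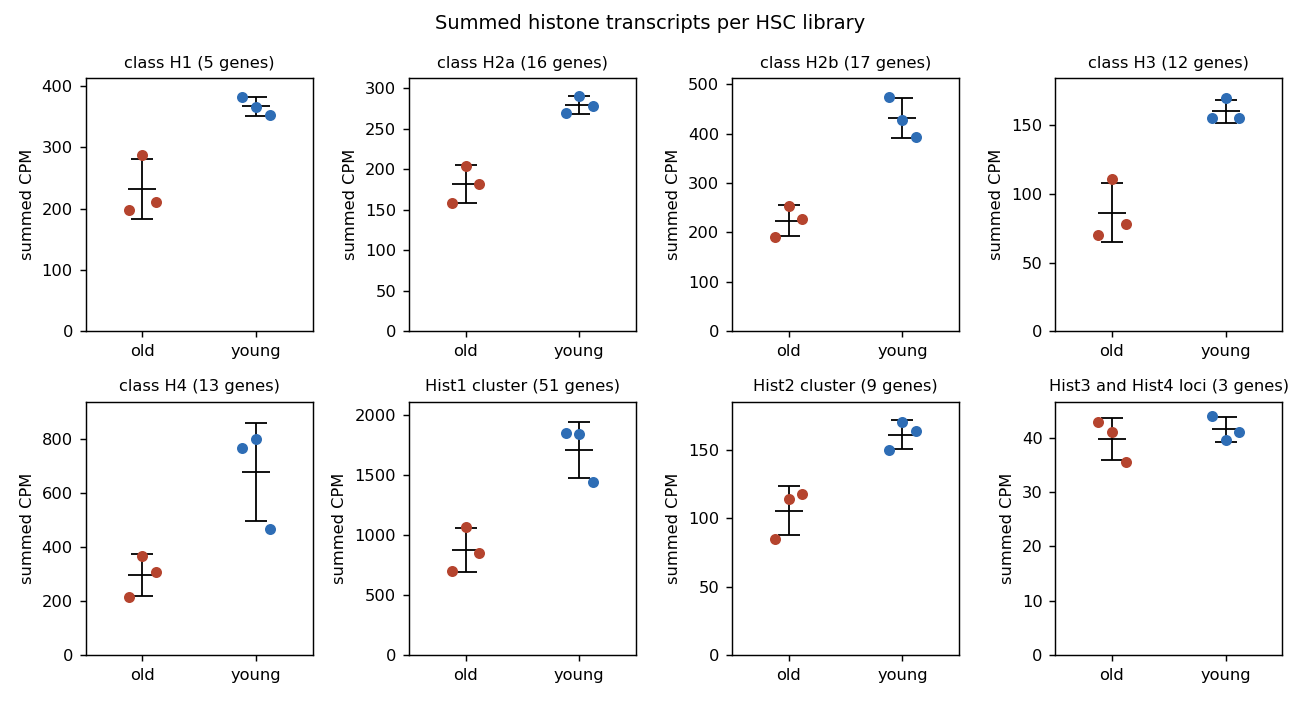
Summed CPM of histone genes in each of 3 old and 3 young HSC libraries (points, replicates 1 to 3 from left to right), with mean and SD, for the 5 classes and for the 3 groups of loci. The old points lie below the young points in each panel but the last, Hist3h2a, Hist3h2ba and Hist4h4, where 35.5 to 42.9 CPM in old overlap with 39.5 to 43.9 CPM in young HSCs.

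Linker histone genes share few stretches with other genes, with the exception of Hist1h1e. Hist1h1b, also called H1f5, on chromosome 13 from 21779883 to 21780625 (GRCm38), had 19.8, 39.8 and 23.1 CPM in old HSCs, against 86.4, 70.9 and 100.03 CPM in young HSCs. It was 3.13-fold lower, with a log2 fold change of −1.65 ± 0.25 SE (edgeR adjusted p = 0.00325). Hist1h1a, also called H1f1, on chromosome 13 from 23763666 to 23764406, had 17.8, 12.4 and 22.5 CPM in old HSCs, against 35.3, 46.5 and 38.8 CPM in young HSCs. Both groups stood apart for these genes. Hist1h1a fell by 1.19 ± 0.24 SE on the log2 scale (edgeR adjusted p = 0.0178), a call lost without old replicate 1, old replicate 2 or young replicate 2 (adjusted p = 0.0799, 0.0601 and 0.0645). Hist1h1e, also called H1f4, which took 43.96% of H1 counts over all libraries, had 82.7, 134 and 97.1 CPM in old HSCs, against 174, 166 and 136 CPM in young HSCs. Its log2 fold change of −0.61 did not pass (edgeR adjusted p = 0.0849), but it did with DESeq2, with library size alone and without old replicate 2 (adjusted p = 0.0171, 0.0367 and 0.0345). The annotated model of Hist1h1e overlaps Hist1h2be on the same strand. Hist1h1d, also called H1f3, had 17.3, 25.2 and 17.2 CPM in old HSCs, against 35.5, 30.6 and 34.6 CPM in young HSCs, and did not pass (log2 −0.76, edgeR adjusted p = 0.0843, DESeq2 adjusted p = 0.0178). Hist1h1c, also called H1f2, on chromosome 13 from 23738808 to 23740367, departed from the rest of its class. It had 60.1, 76.3 and 50.4 CPM in old HSCs, against 51.6, 51.8 and 43.4 CPM in young HSCs, and its groups overlapped (log2 0.34 ± 0.18 SE, edgeR adjusted p = 0.39). Without Hist1h1c the other 4 H1 genes summed to 138, 211 and 159.9 CPM in old HSCs, against 332, 314 and 309.6 CPM in young HSCs, 1.88-fold lower.

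**Figure D3:**
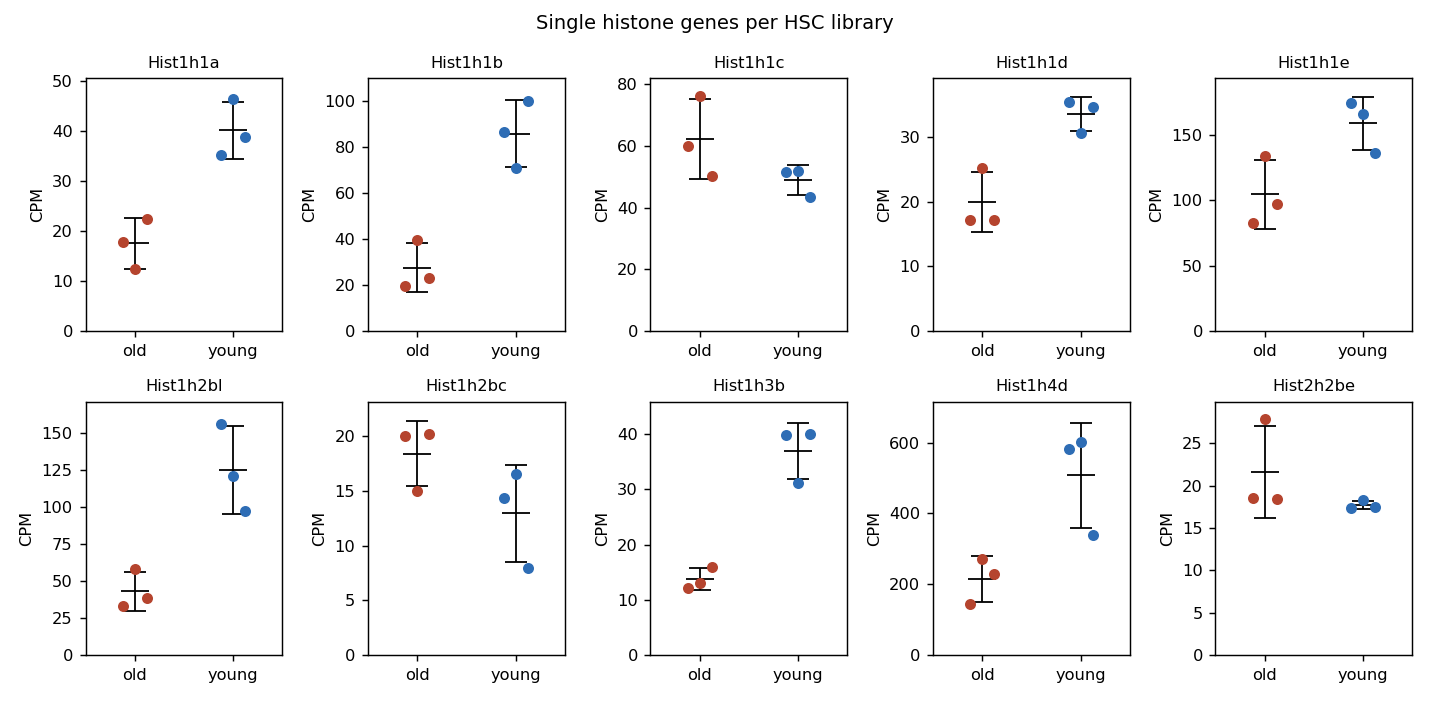
CPM of 10 histone genes in each of 3 old and 3 young HSC libraries (points, replicates 1 to 3 from left to right), with mean and SD. The top row holds the 5 H1 genes, with Hist1h1c overlapping between the groups, and the bottom row holds Hist1h2bl, Hist1h3b and Hist1h4d, lower in every old library, beside Hist1h2bc, which overlaps, and Hist2h2be, highest in the old libraries.

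H2a genes encode the partner of H2B in the nucleosome, and 2 of the 16 were lower in old HSCs. Hist1h2ai, on chromosome 13 from 21716422 to 21716814, took 21.2% of H2a counts and had 24.8, 43.4 and 31.7 CPM in old HSCs, against 67.8, 64.9 and 60.7 CPM in young HSCs. The groups did not overlap, and Hist1h2ai fell by 0.96 ± 0.21 SE on the log2 scale (edgeR adjusted p = 0.0231). The call was lost without old replicate 1 or 3 or young replicate 1 or 2 (adjusted p = 0.106, 0.122, 0.0592 and 0.0611), and 9.88% of its 50-base stretches were unique. Hist2h2ac, on chromosome 3 from 96220361 to 96220880, had 17.2, 23.2 and 28.9 CPM in old HSCs, against 49.5, 52.1 and 59.4 CPM in young HSCs. It fell by 1.22 ± 0.21 SE (edgeR adjusted p = 0.0077). Of the other 14, Hist1h2ap, Hist1h2an, Hist1h2af, Hist1h2ab and 4 more lay lower in all old libraries without passing. Hist1h2af, with the lowest H2a value, had 2.57, 2.01 and 1.74 CPM in old HSCs, against 5.69, 6.67 and 6.14 CPM in young HSCs (log2 −1.54, edgeR adjusted p = 0.0714). Hist1h2ac had 22.3, 23.5 and 12.9 CPM in old HSCs, against 12.7, 18.2 and 8.65 CPM in young HSCs, and Hist2h2aa1 and Hist3h2a overlapped between the groups as well. The largest positive value of any member, 1.51 for Hist1h2ao, rested on 14, 7 and 24 counts in old and 9, 10 and 0 counts in young HSCs (edgeR adjusted p = 0.511). Hist1h2ah was listed at 0 counts in old replicate 1 but at 48 and 37 in the other old libraries.

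By number, H2b held the most lower genes in the edgeR fit, 5 of 17. DESeq2 gave 7 in H2a and 6 in H4, against 5 in H2b, and limma-voom gave 4 each in H2b and H4. With identical proteins summed, 3 of 11 H2b rows were lower. Hist1h2bl, on chromosome 13 from 21715763 to 21716143, took 25.7% of H2b counts and had 33.2, 58.0 and 38.2 CPM in old HSCs, against 156, 121 and 97.6 CPM in young HSCs. It was 2.91-fold lower (log2 −1.54 ± 0.23 SE, edgeR adjusted p = 0.00279). Hist1h2bm, on chromosome 13 from 21722044 to 21722567, had 32.7, 43.95 and 54.2 CPM in old HSCs, against 108, 93.7 and 128 CPM in young HSCs. It was 2.51-fold lower (edgeR adjusted p = 0.00273). Hist1h2bm took a further 23.4% of H2b counts, and neither gene overlapped between the groups. Hist1h2bf had 2.66, 2.94 and 2.06 CPM in old HSCs, against 12.2, 15.8 and 12.8 CPM in young HSCs, 5.35-fold lower (edgeR adjusted p = 0.00225). Hist1h2bn had 5.48, 5.62 and 5.22 CPM in old HSCs, against 13.7, 17.7 and 15.9 CPM in young HSCs, 2.89-fold lower (edgeR adjusted p = 0.0103, and 0.0529 and 0.0544 without old replicate 1 and 3). Hist1h2bk had 5.95, 10.1 and 5.22 CPM in old HSCs, against 34.6, 24.4 and 11.3 CPM in young HSCs. Its call (log2 −1.74, edgeR adjusted p = 0.0359) was lost in any 1-library omission but that of young replicate 3 (adjusted p from 0.0506 to 0.169 in those 5 fits), and also with limma-voom (adjusted p = 0.102). Hist1h2bq, the third most counted H2b gene, had 15.4, 26.3 and 18.8 CPM in old HSCs, against 29.0, 30.4 and 23.3 CPM in young HSCs, which overlap. Hist1h2bc, Hist1h2bg, Hist1h2br, Hist2h2be and Hist3h2ba had positive log2 values, and none passed. Hist1h2bc had 20.0, 15.01 and 20.2 CPM in old HSCs, against 14.4, 16.5 and 7.98 CPM in young HSCs. Hist2h2be had 18.6, 27.8 and 18.4 CPM in old HSCs, against 17.4, 18.3 and 17.4 CPM in young HSCs (log2 0.28, edgeR adjusted p = 0.633).

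H3 was the class with the fewest counts in each library, and 2 of its 12 genes were lower. Hist1h3b, on chromosome 13 from 23752267 to 23752886, had 12.1, 13.1 and 15.9 CPM in old HSCs, against 39.9, 31.1 and 40.0 CPM in young HSCs. It was 2.69-fold lower with a clear gap between the groups (log2 −1.43 ± 0.22 SE, edgeR adjusted p = 0.00325). Hist1h3h had 6.12, 7.72 and 7.15 CPM in old HSCs, against 11.9, 17.3 and 18.3 CPM in young HSCs. Its call (log2 −1.18, edgeR adjusted p = 0.0471) was lost on leaving out any 1 library except young replicate 1 (adjusted p from 0.0986 to 0.165 in those 5 fits), and also with limma-voom and without a filter (adjusted p = 0.055 and 0.0521). Hist1h3e, at 19.8% of H3 counts the second most counted gene of the class, showed no such gap. It had 17.0, 31.5 and 20.8 CPM in old HSCs, against 27.5, 30.8 and 18.9 CPM in young HSCs (log2 −0.16, edgeR adjusted p = 0.841). Hist2h3c2 had the lowest value of the class, with 5.19, 8.39 and 2.66 CPM in old HSCs, against 15.8, 23.6 and 10.6 CPM in young HSCs (log2 −1.64, edgeR adjusted p = 0.0615). It passed with DESeq2, with library size alone and without old replicate 2 (adjusted p = 0.00327, 0.0462 and 0.0491). Hist1h3d and Hist1h3f were above 0, at 0.29 and 0.090 on the log2 scale, and both overlapped between the groups.

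H4 counts came mostly from one gene. Hist1h4d, on chromosome 13 from 23581598 to 23582735, took 74.2% of H4 counts and 24.6% of all histone counts, with 143, 271 and 229.5 CPM in old HSCs, against 583, 602 and 338 CPM in young HSCs. Per kilobase of its annotated model, that was a level of 188 CPM in old and 446 CPM in young HSCs, above Hist1h4k at 112 in old and 251 in young HSCs. Hist1h4d was 2.37-fold lower (log2 −1.24 ± 0.24 SE, edgeR adjusted p = 0.0131), with young replicate 3 nearest to the old libraries. The call was lost without old replicate 1, old replicate 3 or young replicate 2 (adjusted p = 0.0535, 0.0586 and 0.0532). Hist1h4k had 27.1, 43.1 and 35.0 CPM in old HSCs, against 85.6, 92.2 and 57.2 CPM in young HSCs, and fell by 1.16 ± 0.22 SE (edgeR adjusted p = 0.012). Without the same 3 libraries its adjusted p was 0.0727, 0.066 and 0.051. Hist1h4f had the largest change of all 63 genes, at a low level. It stood at 0.506, 0.755 and 0.458 CPM in old HSCs, against 6.35, 5.61 and 4.98 CPM in young HSCs, or 12, 9 and 10 counts in old and 134, 143 and 163 counts in young HSCs (9.96-fold lower, edgeR adjusted p = 0.00403). Hist1h4n had 1.73, 3.19 and 2.15 CPM in old HSCs, against 15.8, 11.6 and 6.33 CPM in young HSCs (log2 −2.27, edgeR adjusted p = 0.0146). Hist1h4n lost its call without old replicate 1, old replicate 3 or young replicate 1 (adjusted p = 0.0769, 0.0734 and 0.0542). Of the other 9 H4 genes, 8 had a value below 0, and Hist1h4m stood at 0.079 on the log2 scale. Hist1h4c had 10.3, 13.7 and 12.7 CPM in old HSCs, against 22.2, 23.3 and 19.7 CPM in young HSCs, with no overlap and no call (edgeR adjusted p = 0.082, DESeq2 adjusted p = 0.0185).

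By cluster, 14 of 51 Hist1 genes, 1 of 9 Hist2 genes and none of the 3 others were lower (edgeR, with 29, 5 and 0 at an unadjusted p under 0.05). Hist1 genes summed to 702, 1068 and 853 CPM in old HSCs, against 1851, 1841 and 1441 CPM in young HSCs, 1.96-fold lower. Hist2 genes summed to 85.0, 114 and 117 CPM in old HSCs, against 149.6, 170.4 and 164 CPM in young HSCs, 1.53-fold lower. In Hist2h2aa1, Hist2h2bb, Hist2h3b and Hist2h3c1, 100% of the 50-base stretches also occurred, on either strand, in a gene outside the class. That share was 64.8%, 55.0% and 63.5% in Hist2h2ab, Hist2h2ac and Hist2h3c2, and 0 in Hist2h2be and Hist2h4. The Hist2 sum therefore rests in large part on how shared reads were divided. Beside Hist2h2ac, the Hist2 genes Hist2h3c2, Hist2h3b, Hist2h2ab and Hist2h2bb had log2 values of −1.64, −1.12, −0.94 and −0.81, and Hist2h4 and Hist2h3c1 had −0.45 and −0.31. Hist2h2be and Hist2h2aa1 had 0.28 and 0.25, and only Hist2h2ac of the 9 passed. The 3 other genes summed to 42.9, 41.1 and 35.5 CPM in old HSCs, against 43.9, 39.5 and 41.1 CPM in young HSCs, so the groups overlapped. Hist3h2a supplied most of this, with 28.8, 28.4 and 24.5 CPM in old HSCs, against 27.5, 23.4 and 25.3 CPM in young HSCs. Hist4h4 had 11.9, 8.14 and 8.52 CPM in old HSCs, against 11.1, 15.6 and 14.2 CPM in young HSCs (log2 −0.52, edgeR adjusted p = 0.426). Hist3h2ba had 2.28, 4.61 and 2.47 CPM in old HSCs, against 5.26, 0.471 and 1.65 CPM in young HSCs. The share of histone counts from Hist1 was 84.6% to 87.3% in old and 87.6% to 90.5% in young libraries, without overlap. A test that the clusters differ in their change was not made.

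The Hist1 cluster is not one run of genes, and gaps of more than 100 kb divide it into 3 blocks on chromosome 13. Block 1 spans 21715763 to 21837530 with 18 genes, block 2 spans 22035164 to 22043676 with 5 genes, and block 3 spans 23531050 to 23764406 with 28 genes. Lower genes numbered 8 of 18, 1 of 5 and 5 of 28 in blocks 1, 2 and 3. Block 1 summed to 211, 330.1 and 259 CPM in old HSCs, against 652, 613 and 586 CPM in young HSCs, with a log2 ratio of −1.21. Block 2, with Hist1h2bk, summed to 13.7, 24.2 and 16.2 CPM in old HSCs, against 60.6, 49.4 and 29.7 CPM in young HSCs, with a log2 ratio of −1.37. Block 3 summed to 478, 714 and 577 CPM in old HSCs, against 1139, 1179 and 825 CPM in young HSCs, with a log2 ratio of −0.83. All old libraries lay below all young libraries in each block. Hist1h1c, Hist1h2ac, Hist1h2bc, Hist1h2bg, Hist1h3d and Hist1h3f, all in block 3 and above 0, stood beside genes such as Hist1h4f and Hist1h2bf with the lowest values. In block 1, Hist1h2ao, Hist1h2br and Hist1h4m were above 0 as well.

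**Figure D4:**
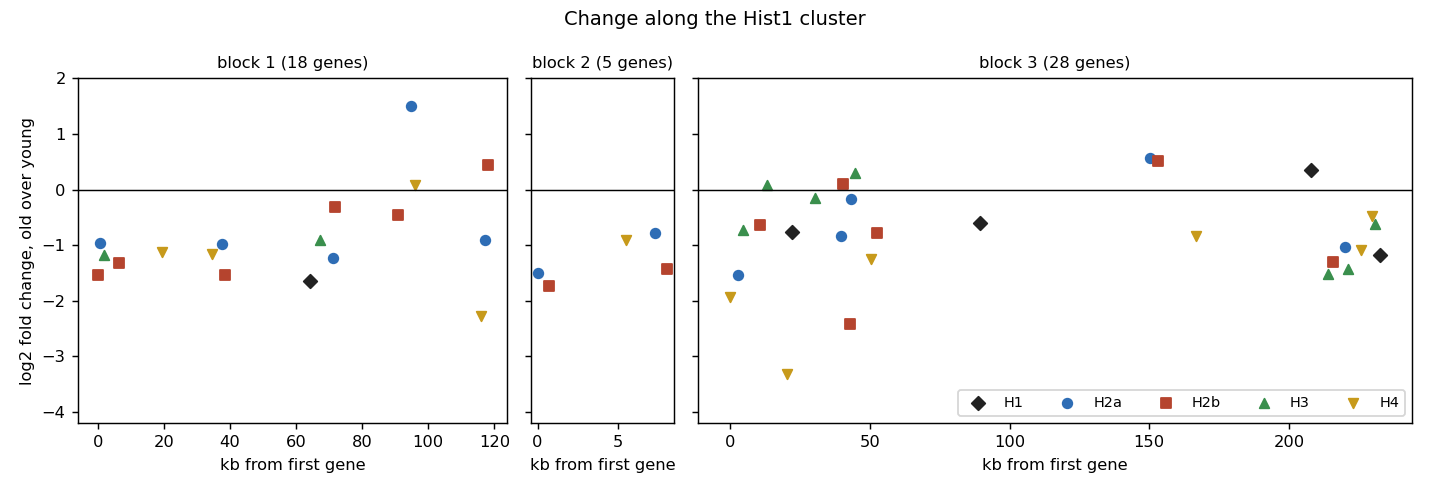
Log2 fold change, old over young HSCs, of the 51 Hist1 genes against distance in kb from the first gene of each of 3 blocks, with symbols for class. Values below 0 occur along all 3 blocks, and neighbouring genes within block 3 range from −3.32 for Hist1h4f to 0.57 for Hist1h2ac.

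H2a and H2b genes often lie head to head and share one upstream region, and 11 such pairs had starts 176 to 302 bases apart. Both partners were lower in 1 pair, one partner in 4 pairs and neither in 6. Over the 11 pairs, the log2 fold changes of the partners had a Pearson r of 0.16 and a Spearman rho of 0.173, given as a description, since partners share libraries and pairs share reads. In the pair with both lower, Hist1h2ai had −0.96 and Hist1h2bl −1.54 on the log2 scale. Hist1h2ac and Hist1h2bc had 0.57 and 0.51, the only pair with both values above 0. Partners could also differ: Hist2h2ac had −1.22 and Hist2h2be 0.28, and Hist1h2ad had −0.17 and Hist1h2bf −2.42.

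Upstream regions are shown for 4 genes, of which Hist1h1b and Hist1h2bl were lower in old HSCs and Hist1h1c and Hist1h2ac had values above 0. Hist1h1b and Hist1h1c had the lowest and the highest log2 value in H1. Hist1h2bl (region shared with Hist1h2ai) belongs to the pair with both partners lower, and Hist1h2ac (region shared with Hist1h2bc) to the pair with both values above 0. Each is the 250 bases before the RefSeq start, build GRCm38.p6, 5′ to 3′ on the strand of the gene, with capitals on motifs found on either strand. The motifs searched were the CCAAT box, spelled CCAAT, the TATA box, spelled TATAAA, the octamer, spelled ATTTGCAT, and the H1 box, spelled AAACACA.
Hist1h1b, chr13:21780626-21780875, minus strand: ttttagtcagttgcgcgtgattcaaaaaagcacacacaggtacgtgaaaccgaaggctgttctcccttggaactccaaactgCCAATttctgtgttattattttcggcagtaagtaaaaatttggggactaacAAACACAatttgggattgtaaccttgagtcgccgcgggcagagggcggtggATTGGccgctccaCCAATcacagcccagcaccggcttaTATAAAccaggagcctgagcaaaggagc
Hist1h1c, chr13:23738557-23738806, plus strand: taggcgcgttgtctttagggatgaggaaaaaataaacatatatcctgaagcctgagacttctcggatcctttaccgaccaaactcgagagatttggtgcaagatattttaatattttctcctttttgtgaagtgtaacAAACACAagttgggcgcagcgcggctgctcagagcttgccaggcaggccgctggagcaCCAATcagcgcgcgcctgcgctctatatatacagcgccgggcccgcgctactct
Hist1h2bl, chr13:21716184-21716433, minus strand: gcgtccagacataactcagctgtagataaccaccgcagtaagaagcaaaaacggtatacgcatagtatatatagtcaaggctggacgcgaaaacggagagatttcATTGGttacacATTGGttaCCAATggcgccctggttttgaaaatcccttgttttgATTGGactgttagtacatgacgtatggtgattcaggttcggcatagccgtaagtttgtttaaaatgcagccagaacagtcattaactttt
Hist1h2ac, chr13:23683960-23684209, minus strand: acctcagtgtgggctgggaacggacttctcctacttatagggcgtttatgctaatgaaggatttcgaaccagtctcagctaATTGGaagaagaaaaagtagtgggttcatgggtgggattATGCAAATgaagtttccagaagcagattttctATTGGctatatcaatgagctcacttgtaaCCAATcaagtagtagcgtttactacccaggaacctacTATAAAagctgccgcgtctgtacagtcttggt
CCAAT occurred 3 times upstream of Hist1h1b and once upstream of Hist1h1c, and each had AAACACA once. TATAAA was present for Hist1h1b and not for Hist1h1c. The Hist1h2bl region had CCAAT 4 times and no octamer, and the Hist1h2ac region had CCAAT 3 times with the octamer and TATAAA. The octamer was also upstream of Hist1h2bk, Hist1h2bm and Hist2h2ac, which were lower, and of Hist1h2bg and Hist3h2a, with values above 0. Whether any motif goes with the change over all members was not tested. Motifs were counted only in the 250 bases before the start of each RefSeq promoter. Of the 57 members with such a promoter, 80.7% held CCAAT, against 33.8% of 32851 promoters. TATAAA was found in 47.4% of members and 12.4% of all promoters, the octamer in 19.3% and 1.60%, and AAACACA in 10.5% and 6.25%. By class, CCAAT was in all 5 H1, 15 H2a and 15 H2b promoters, in 8 of 10 H3 and in 3 of 12 H4 promoters. These are not counts of separate regions, since head-to-head partners share upstream bases and a site can count for both. The regions of Hist1h2bq and Hist1h2br are also identical. The octamer was in 6 of 15 H2a and 5 of 15 H2b promoters and in none of the other classes, and AAACACA was in 4 of 5 H1 promoters. No motif overlapped another one in these promoters, and a match of letters is not a measured binding site.

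Members also differed in how their transcript end is annotated. A replication-dependent transcript normally stops a little after its stem-loop, but 23 members have a model with at least 300 bases after the stop codon or with a spliced transcript. The limit was chosen with the values known, so what follows is a description without a test. Of these 23, only Hist1h4d was lower, and their median log2 fold change was −0.45. Of the 40 others, 14 were lower, with a median of −1.14. The long models summed to 501, 741 and 580 CPM in old HSCs, against 1087, 1138 and 763 CPM in young HSCs, a log2 ratio of −0.71. The other models summed to 329, 483 and 426 CPM in old HSCs, against 958, 914 and 882 CPM in young HSCs, a log2 ratio of −1.15. Across the 63 genes the log2 fold change had a Spearman rho of 0.565 with the bases after the stop codon, of 0.551 with transcript length, of 0.151 with the share of unique 50-base stretches and of −0.0935 with mean CPM. Single genes, picked after their values were seen, illustrate this: Hist2h2be with 2192 bases after the stop codon had 0.28 on the log2 scale, Hist1h2ac with 2058 bases had 0.57, Hist1h2bf with 74 bases had −2.42 and Hist1h1b with no annotated base had −1.65. Hist4h4 with 2515 bases had −0.52 and Hist1h4d with 822 had −1.24, so the order is not strict. The sum over genes with at least 50% unique stretches had a log2 ratio of −0.84 and that over the others −1.03.

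**Figure D5:**
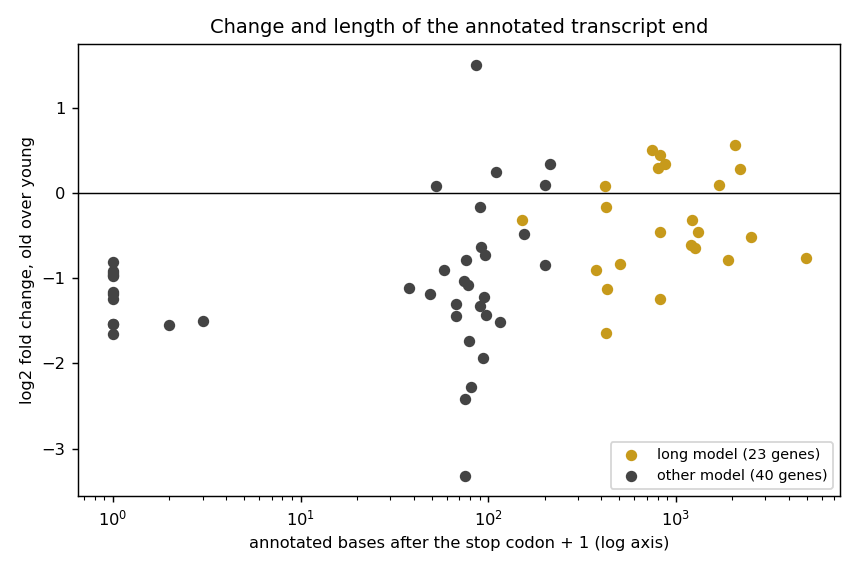
Log2 fold change, old over young HSCs, against annotated bases after the stop codon plus 1 (log axis) for 63 histone genes. Yellow points are the 23 genes with long or spliced models, with a median of −0.45, and dark points the 40 others, with a median of −1.14.

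Genes that make, process and deposit these histones were read from the same fit. None of 14 genes for transcription of histone genes passed in either direction (edgeR, with 5 lower and 0 higher at an unadjusted p under 0.05; DESeq2 called 3 lower and limma-voom 0), and their median log2 fold change was −0.30. Npat, the cyclin E target that switches histone genes on, had 147, 139.5 and 132 CPM in old HSCs, against 179, 142 and 147 CPM in young HSCs. Casp8ap2, its partner FLASH, had 165, 166 and 141 CPM in old HSCs, against 238, 169 and 195 CPM in young HSCs (log2 −0.35, edgeR adjusted p = 0.231), and Hinfp, a factor of H4 promoters, had a log2 value of −0.22. The cell cycle members of this list had its lowest values, −1.56 for Ccne1, −0.90 for Cdc25a and −0.88 for Ccne2, and none passed. Of 17 genes for 3′ processing none passed (edgeR, with 4 lower and 0 higher at an unadjusted p under 0.05; DESeq2 called 1 lower and limma-voom 0). Slbp had 70.5, 65.9 and 50.7 CPM in old HSCs, against 114, 73.9 and 101 CPM in young HSCs, without overlap (log2 −0.63, edgeR adjusted p = 0.0951, and 0.0213 with DESeq2 and 0.0423 without young replicate 2). Lsm10 and Lsm11, the subunits particular to the U7 particle that cuts the histone transcript, had log2 values of 0.085 and 0.079. Of 13 decay genes none passed (edgeR, with 0 in either direction at an unadjusted p under 0.05, and 0 by DESeq2 and limma-voom), with Eri1, the exonuclease that trims the stem-loop, at −0.18.

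Among 18 histone chaperone and deposition genes, 2 were lower in old HSCs and none was higher (edgeR, with 8 lower and 0 higher at an unadjusted p under 0.05). DESeq2 gave 6 lower, library size alone 4, and limma-voom and the fit without a filter 1 each. Chaf1a, the large subunit of the assembly factor CAF-1, had 16.5, 11.5 and 12.0 CPM in old HSCs, against 31.9, 19.3 and 37.4 CPM in young HSCs (log2 −1.15, edgeR adjusted p = 0.0444). Mcm2, a helicase subunit that also holds H3 and H4, had 77.8, 81.6 and 70.6 CPM in old HSCs, against 138, 103 and 124 CPM in young HSCs (log2 −0.67, edgeR adjusted p = 0.0236). Both calls were lost when any 1 library other than young replicate 2 was omitted (adjusted p from 0.0765 to 0.189 for Chaf1a and from 0.06 to 0.148 for Mcm2). Chaf1a also lost its call with limma-voom and without a filter (adjusted p = 0.0846 and 0.057). Nasp, Asf1b and Mms22l had log2 values of −0.65, −0.69 and −0.59 without passing, and Nasp and Asf1b overlapped between the groups. Hjurp, Dnajc9 and Ssrp1 had −0.39, −0.45 and −0.46 without overlap and did not pass (edgeR adjusted p = 0.0739, 0.0742 and 0.0901). Chaf1b had a log2 value of 0.0055, and its groups overlapped.

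Replacement histone genes, which are made outside S phase as well, had summed levels that overlapped between the groups. The 11 genes summed to 2358, 2766 and 2399 CPM in old HSCs, against 2963, 2472 and 2339 CPM in young HSCs. H3f3b, which encodes H3.3, was higher in old HSCs, with 802, 839 and 812 CPM in old, against 683, 489 and 474 CPM in young HSCs (log2 0.58, edgeR adjusted p = 0.0339). The call held, of the fits with 1 library omitted, only in that without young replicate 1 (adjusted p from 0.089 to 0.131 in the other 5 fits). H3f3a, the other H3f3 gene of the list, overlapped between the groups and did not pass (log2 0.22, edgeR adjusted p = 0.347). H2afz had a log2 value of −0.49 and H2afx −0.65, and neither passed (edgeR adjusted p = 0.0805 and 0.113), whereas DESeq2 called 3 of the 11 genes lower and 1 higher. The ratio of the replication-dependent sum to the replacement sum was 0.352, 0.442 and 0.419 in old and 0.69, 0.83 and 0.703 in young libraries, without overlap. Of 26 S phase genes, Slbp and Mcm2 among them, 19 were lower in old HSCs (edgeR), and 4 to 18 were lower when 1 library was left out, the fewest without old replicate 3, with 9 without old replicate 2, 11 without old replicate 1 or young replicate 3 and 13 without young replicate 1. Their sum was 1923, 1848 and 1701 CPM in old HSCs, against 3025, 2624 and 2994 CPM in young HSCs. The histone sum divided by the S phase sum was 0.432, 0.662 and 0.591 in old and 0.676, 0.782 and 0.55 in young libraries, so this ratio overlapped between the groups.

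The authors' deposited table, in which a positive log2 value means higher in young, called 26 of the 63 lower in old HSCs and 0 higher, where 2.6% of its 15649 genes were lower. All 15 genes called by edgeR were among the 26 in the authors' deposited table. The authors' deposited table held 3 lower H1, 7 H2a, 5 H2b, 5 H3 and 6 H4 genes, and its median log2 value over the 63 was 0.63, against 0.014 over all its genes. For Hist1h1b the authors' deposited table gave a log2 value of 1.36 with an adjusted p of 1.79e-06.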

How the data were processed

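RNA of 3 old and 3 young mouse HSC samples was isolated with the PicoPure kit, made into low-input libraries (Nugen Ovation Trio) and read from one end over 50 bases, per the labels' protocols and the design text. The deposited table holds estimated counts per gene, all whole numbers, with 1 column per library, and 0 columns were left unmapped. The build GRCm38 and the tools FastQC, MultiQC, Salmon and DESeq2 stand in the submitters' processing notes, with no versions or roles. A second deposited table holds the authors' own comparison: a base mean per gene, which is a normalised signal the authors computed, the authors' log2 fold change with its standard error, a deposited test score, and the authors' p-value and adjusted p-value. Columns were matched to samples by title, and replicates were numbered in sample order.

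Gene identifiers were matched to GENCODE vM21 (GRCm38, positions counted from 1), which gave a symbol to 16301 of 16312 genes. The annotation lists 70 symbols of the Hist1h to Hist4h pattern, of which 63 are in the table. Counts were fitted over all genes with edgeR 4.0.16 in R 4.3.3. Its default filter (minimum count 10, minimum total 15) left 14288 genes and kept all 63 members. TMM factors lay between 0.955 and 1.06. Age was tested with the two-sided quasi-likelihood F test and Benjamini-Hochberg adjustment over all tested genes at a threshold of 0.05. The fit was also run on simulated counts, whose mean levels and dispersions came from the real data. Class and cluster sums are summed counts over the scaled library size, and p-values measure only the spread between these samples. Alternatives used DESeq2 1.42.0, limma-voom (limma 3.58.1), other scalings, no filter, 1 library left out, and counts summed over genes with identical proteins. A floor of 3 counts corresponds to 0.0917 to 0.252 CPM per library, for counting error only.

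Promoters are RefSeq's, GRCm38.p6, matched by older symbol for 57 members. Coding bases, transcript ends and shared stretches of 50 bases come from GENCODE vM21 transcripts, and overlapping annotation was read without regard to how the authors counted. Members, lists and tests were chosen with earlier results of these data known. Genes named are all H1 members, the called members of each core class, its 3 most counted and its extreme members, all members outside Hist1, called pathway and replacement genes, and Slbp, Npat, Casp8ap2, Lsm10, Lsm11, Eri1 and Hinfp. Any other gene named was picked after its values were seen. Of the marker lists without values in the text, B cell and plasma cell markers had 0 of 2 called, and T and NK cell, megakaryocyte and endothelial markers each had 1 higher and 0 lower of 4, 6 and 4 tested (edgeR).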

Additional observations from a re-analysis of the deposited data

How the results depend on the processing

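The count of lower histone genes was 15, and it was 15 with DESeq2 size factors, 17 with library size alone, 14 without a filter and 14 with limma-voom. DESeq2 gave 27, and summing genes with identical proteins gave 9 of 28 rows, fewer units to call by construction. With 1 library left out the count ran from 7 to 16. It was 7 without old replicate 1, 8 without old replicate 3, 9 without young replicate 2, 12 without young replicate 1, 14 without young replicate 3 and 16 without old replicate 2. No histone gene was higher in any of these fits. Over all genes tested, lower calls were 220 in the main fit and 487 with DESeq2. They were 98 without old replicate 1, 138 without old replicate 2, 79 without old replicate 3, and 163 to 167 without a young library. The log2 ratio of class and cluster sums kept its sign under every scaling and with any 1 library left out, except for the Hist3 and Hist4 loci, which stood at 0.017 without old replicate 3. Without its most counted member, the H2b sum moved from −0.95 to −0.76, the Hist2 sum from −0.61 to −0.38 and that of the Hist3 and Hist4 loci from −0.06 to −0.35. The H4 sum ran from −1.40 to −1.003 and the sum of all 63 genes from −1.06 to −0.78 with 1 library left out. Over 47 named histone and pathway genes and 11 alternatives, 456 of 517 values kept their side of the threshold. Of the rest, 48 lost a call and 13 gained one, and none reversed a call. Only genes called in the main fit could lose a call, namely the 15 histone genes, Chaf1a, Mcm2 and H3f3b. The 456 therefore include many values of genes without a call in either fit. Among the called genes, the call was kept in 4 of 11 alternatives for Hist1h3h and Chaf1a and in up to all 11 for others. Some genes without a call changed sign between fits, such as Hist1h3d (log2 from −0.049 to 0.56) and Hist3h2ba (from −0.15 to 1.53). The causes of these shifts were not tested. No paired analysis was possible because the labels give the samples no shared replicate numbers, only the order of the samples. Low counts limit the smallest members, such as Hist1h2ao and Hist1h4f. Reads shared between genes limit single members, class sums (for H2a most) and the Hist2 sum. With 3 libraries per age, a member that missed the threshold may still differ.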
